A study of Mus musculus with 22 samples.

Results

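Ly6a, Ly6d, Clu, Anxa1, Gja1, Ptgs2, Gprc5a and Il33, which are used as markers of the fetal-like regenerative state of the intestinal epithelium, were followed across 22 RNA-seq libraries of mouse duodenal organoids. They were chosen by symbol and are 8 of the 52636 genes in the deposited table. Organoids are closed epithelial structures grown in a gel from intestinal crypts, and the lines came from wild-type CD1 outbred mice of 2 months. Cold atmospheric plasma (CAP), a partly ionized helium jet that loads the medium with reactive oxygen and nitrogen species, was run at 50 W for 60 s.

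The untreated group held 4 libraries, 1 from each of 4 organoid lines (numbered 1 to 4 here), each line from 1 mouse. Lines 1, 2 and 4 each gave 1 library in every one of 6 treated groups, so n = 3 per treated group, and the same lines recur. In direct CAP, organoids were exposed at day 1 after replating and the medium was replaced after 30 min or after 24 h. The other groups were naive organoids given conditioned medium from day 1 or from day 2, taken either from another exposed culture (indirect CAP) or from a well exposed with no organoids in it (PAM, plasma-activated medium). An exposure of 24 h is taken here for these 4 groups, whereas the sample labels give 0.5 h for those of day 1. In the study, media given at day 1 were exchanged for fresh medium at day 2, and organoids were analysed at day 3. Media given at day 2 had been generated at day 1 and stayed on until day 3. The time at which the 30 min group was collected is not certain. A line stands for a single mouse, and the lines of male mice (1 and 2) were at later passages than those of female mice (3 and 4), so sex and passage cannot be told apart.

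When the intestinal epithelium is injured, surviving cells can leave the adult program of the crypt and take up genes that are active in the fetal gut, a change driven in part by the coactivator YAP and its TEAD partners. Cells in this state carry Ly6a (Sca1) on their surface, and rare Clu-positive cells with stem cell potential have been described in the regenerating crypt. Prostaglandins made by the Ptgs2 enzyme are known to promote the same state.

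Values are CP20M, which the study's methods define per kilobase of transcript. The deposited values go against that definition, since their low values take the same steps in genes of every length, those of read counts scaled to 20 M per library. They are therefore treated here as not divided by gene length. The libraries held an estimated 19.4 to 28.7 M counted reads. In these bulk samples, fewer cells of a type and less RNA per cell cannot be told apart. The untreated libraries of lines 1 and 2 did not pair with their labels. After group means were removed, the median correlation of the untreated library of line 1 was 0.08 with treated libraries of line 1 and 0.54 with those of line 2, and that of line 2 was 0.13 with its own line and 0.35 with line 1. All 45 pairs of treated libraries of 1 line correlated positively (median 0.56). These untreated libraries also held the lowest values of most of the 8 genes, so the counts and calls against untreated organoids are given with and without them.

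Promoter sequences from RefSeq (GRCm38.p6, from 250 bases before the start of transcription to 50 after) were matched for 4 of the 8 genes, Anxa1, Gja1, Ptgs2 and Il33, the last with 2 starts. Those of Anxa1, Ptgs2 and Il33, the 3 of these 4 that were called higher below, are shown so that their known regulatory motifs can be read. They were searched on both strands for the TEAD motif CATTCC, held by 14.7% of the 32851 promoter windows in the table, the AP-1 motif TGANTCA (7.81%), the cAMP response element TGACGTCA (1.79%) and the ATF4 motif TGATGNAA (3.97%), and capitals mark a match. The Anxa1 window lies at chr19:20390622-20390921 on the minus strand, the Ptgs2 window at chr1:150099781-150100080 and the Il33 windows at chr19:29924863-29925162 and chr19:29945540-29945839, all on the plus strand.
Anxa1: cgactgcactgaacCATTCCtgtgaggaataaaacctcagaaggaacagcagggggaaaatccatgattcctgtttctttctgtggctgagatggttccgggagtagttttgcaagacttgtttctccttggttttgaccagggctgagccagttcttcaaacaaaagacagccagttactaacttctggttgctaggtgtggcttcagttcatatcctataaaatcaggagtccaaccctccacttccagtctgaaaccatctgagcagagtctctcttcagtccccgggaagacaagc
Ptgs2: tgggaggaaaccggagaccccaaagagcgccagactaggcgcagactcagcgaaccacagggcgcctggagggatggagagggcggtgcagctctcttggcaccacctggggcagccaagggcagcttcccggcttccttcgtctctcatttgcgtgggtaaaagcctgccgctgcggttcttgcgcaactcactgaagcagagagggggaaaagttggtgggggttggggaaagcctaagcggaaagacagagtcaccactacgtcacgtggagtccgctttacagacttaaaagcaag
Il33, first start: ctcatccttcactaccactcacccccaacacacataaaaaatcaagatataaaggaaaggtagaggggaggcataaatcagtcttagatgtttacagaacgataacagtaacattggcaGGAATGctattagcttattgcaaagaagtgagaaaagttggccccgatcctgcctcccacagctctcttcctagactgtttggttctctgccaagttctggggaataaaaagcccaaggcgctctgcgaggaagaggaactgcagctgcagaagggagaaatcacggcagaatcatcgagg
Il33, second start: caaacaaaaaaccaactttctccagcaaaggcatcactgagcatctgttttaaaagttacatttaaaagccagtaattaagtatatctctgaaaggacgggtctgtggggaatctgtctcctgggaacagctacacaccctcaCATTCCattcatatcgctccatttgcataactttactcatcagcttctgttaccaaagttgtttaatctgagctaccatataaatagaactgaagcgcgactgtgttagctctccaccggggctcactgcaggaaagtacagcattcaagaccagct

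The Anxa1 window held 1 TEAD match, at positions -236 to -231 from the start. Each Il33 window held 1 as well, at -131 to -126 and at -107 to -102. The Ptgs2 window held none of these motifs as spelled, and that of Gja1 held an AP-1 match at -19 to -13. A match of letters is a description of the sequence, and no binding was measured.

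**Figure D1:**
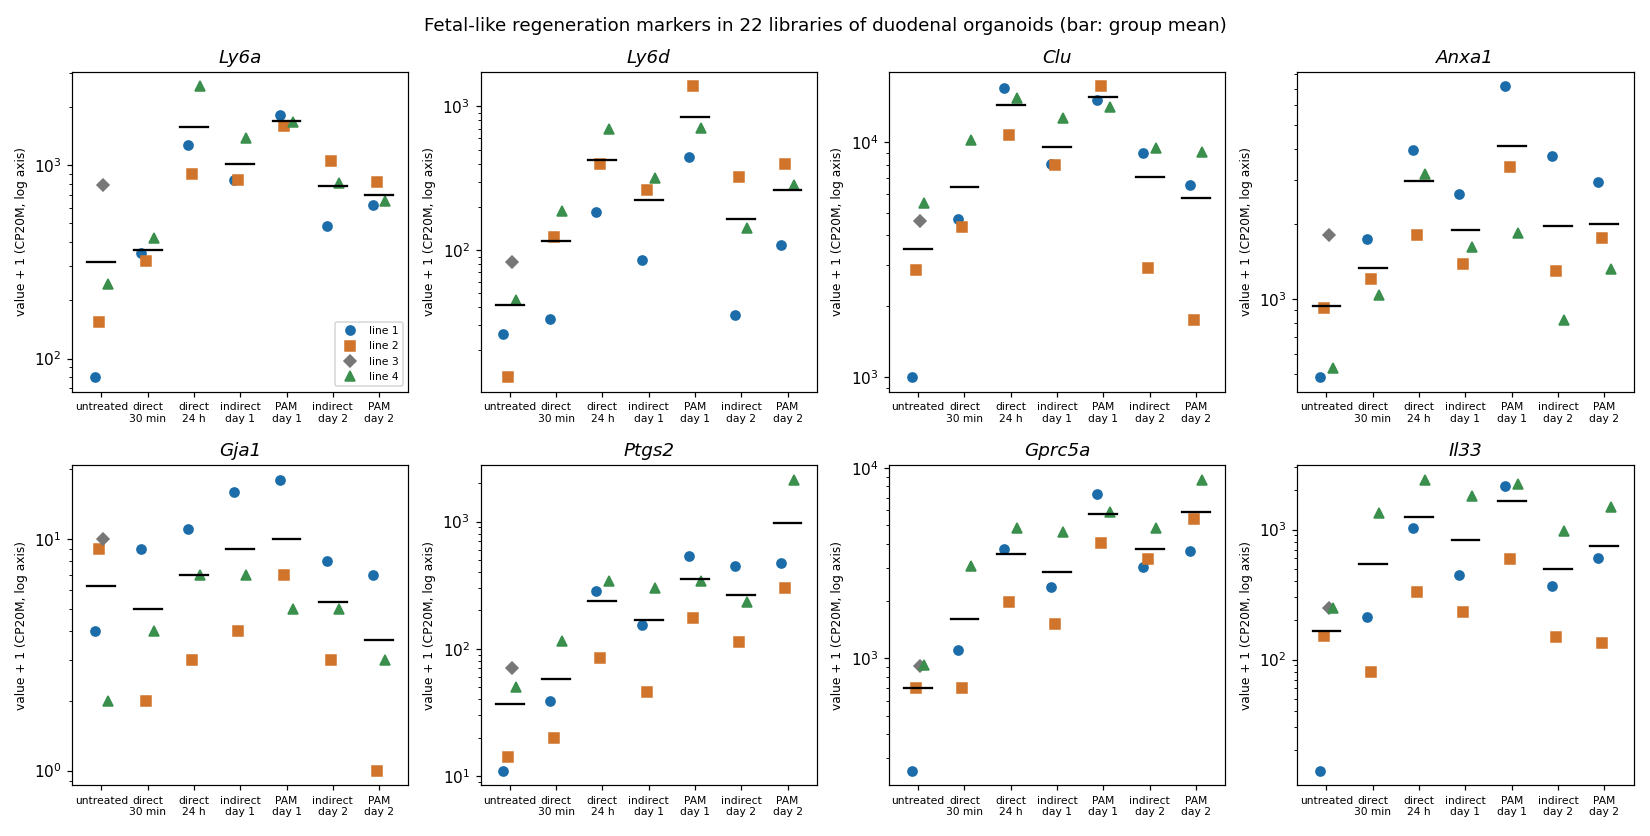
Values of the 8 genes in each library (vertical log axis, CP20M + 1) by group, with the line as colour and symbol and the group mean as a bar. For Ly6a, Ly6d, Clu and Gprc5a every library exposed for 24 h from day 1 lies above all 4 untreated libraries, while Gja1 stays at 17 CP20M or below throughout.

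In organoids exposed for 24 h from day 1, 7 of the 8 genes rose. The 9 libraries so exposed (PAM, indirect CAP and direct CAP, 3 each) were compared with the 4 untreated libraries by limma on log2(CP20M + 1). They come from only 3 lines, each sampled in all 3 groups, and the fit took them as independent. Its p-values therefore do not measure the spread between mice. The threshold was an adjusted p under 0.01 together with a minimum of 1 for the log2 fold change. All 7 genes past it were higher, where 4.27% of the 18490 genes tested were called higher. Over the 8 genes the median log2 fold change was 2.57, and over all genes tested it was -0.05. Ly6a, Ly6d, Clu and Gprc5a had every exposed library above every untreated one (4 of 8, against 7.16% of genes). These 4 were also called in each of 13 fits with a single library left out. They were the only calls left once untreated line 1 was dropped, and once untreated line 2 was dropped, and with both left out 0 of the 8 genes were past the threshold (7 log2 fold changes between 1.33 and 2.64), where 148 of 18365 genes were. With the organoid line as a block, the same 7 genes were called (5.27% of genes higher).

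Ly6a encodes a small protein anchored to the outer face of the membrane, known as stem cell antigen 1. In untreated organoids of lines 1, 2, 3 and 4 it stood at 79, 154, 788 and 241 CP20M. Direct CAP for 24 h brought it to 1275, 900 and 2554 in lines 1, 2 and 4, with 842, 839 and 1375 in the day 1 indirect group and 1813, 1603 and 1674 in the day 1 PAM group. The groups did not overlap, although line 3, the highest untreated library, came within a short distance of the lowest exposed ones. Ly6a had a log2 fold change of 2.60 (SE 0.45, adjusted p = 0.00112, limma), and 1.62 (adjusted p = 0.0387) without the untreated libraries of lines 1 and 2. After 30 min of direct CAP, Ly6a was at 352, 318 and 420, inside the untreated range (log2 fold change 0.71, SE 0.64). When media were given from day 2, it was at 481, 1052 and 807 in the indirect group and 620, 822 and 652 in the PAM group. Both day 2 groups overlapped the untreated one and were not past the threshold (adjusted p = 0.0652 and 0.0686). They were with the line as a block (0.00187 and 0.00442) and when untreated line 3 was dropped (0.00504 and 0.00449). The gene (ENSMUSG00000075602, chromosome 15, 74994877 to 74998031, GRCm38) shares 1.45% of its windows of 100 bases with Ly6c1, so little of its signal could be split with that copy.

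Ly6d, a second member of the Ly6 family on the same chromosome, had the largest log2 fold change of the 8 genes over the 9 libraries. It was low in untreated organoids, at 25, 12, 81 and 44 CP20M in lines 1 to 4. It reached 184, 394 and 690 in lines 1, 2 and 4 after direct CAP for 24 h, 84, 261 and 318 in the day 1 indirect group, and 445, 1378 and 707 in the day 1 PAM group. Every exposed library was above every untreated one, by a narrow margin for line 1 in the indirect group. Over the 9 libraries its log2 fold change was 3.50 (SE 0.61, adjusted p = 0.00114), and 2.64 (adjusted p = 0.0445) without the untreated libraries of lines 1 and 2. Values after 30 min were 32, 122 and 187, of which line 1 fell within the untreated range. With media from day 2 they were 34, 319 and 141 for indirect CAP and 107, 396 and 285 for PAM, the latter past the threshold (log2 fold change 2.79, adjusted p = 0.00978). That call was lost on dropping untreated line 1, 2 or 4, or PAM line 2 or 4 (adjusted p up to 0.0359).

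Gprc5a encodes an orphan G protein-coupled receptor that is induced by retinoic acid in epithelia, and it was called in more of the separate groups than any other of the 8 genes. Untreated values were 257, 701, 911 and 919 CP20M in lines 1 to 4. After direct CAP for 24 h they were 3740, 1973 and 4860 in lines 1, 2 and 4, with 2375, 1515 and 4594 in the day 1 indirect group and 7266, 4062 and 5876 in the day 1 PAM group. No exposed library overlapped the untreated ones. Gprc5a had a log2 fold change of 2.53 (SE 0.41, adjusted p = 0.000731), and 1.98 (adjusted p = 0.0261) without the untreated libraries of lines 1 and 2. With media from day 2 Gprc5a stood at 3016, 3336 and 4867 for indirect CAP and at 3649, 5391 and 8687 for PAM. Both were again clear of the untreated range, with log2 fold changes of 2.55 (SE 0.42, adjusted p = 0.00198) and 3.15 (SE 0.47, adjusted p = 0.0014). Without the untreated libraries of lines 1 and 2 the first was still past the threshold (2.00, adjusted p = 0.00241) and the second was not (2.60, adjusted p = 0.0127). After 30 min the values were 1109, 696 and 3051, and only line 2 lay in the untreated range.

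Gja1 encodes connexin 43, a gap junction protein, and it was the 1 gene of the 8 that was not past the threshold. It was close to the detection limit, at 3, 8, 9 and 1 CP20M in untreated organoids of lines 1 to 4 and between 2 and 17 in the 9 exposed libraries, and it was listed at 0 in 1 library (PAM from day 2, line 2). A value of this size stands for about as many reads, so a change of moderate size was not detectable at this depth. Its log2 fold change was 0.51 (95% interval -0.61 to 1.63, adjusted p = 0.482), and in the separate comparisons Gja1 was too low to be tested.

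Clu encodes clusterin, a secreted chaperone and lipoprotein, and was the most abundant of the 8 genes per length. It stood at 998, 2865, 4602 and 5506 CP20M in untreated organoids of lines 1 to 4. Direct CAP for 24 h brought it to 16945, 10690 and 15427 in lines 1, 2 and 4. The day 1 indirect group stood at 8057, 7953 and 12642 and the day 1 PAM group at 15085, 17201 and 14058. None of these values overlapped the untreated range. The log2 fold change was 2.12 (SE 0.36, adjusted p = 0.000961), and 1.33 (adjusted p = 0.0175) without the untreated libraries of lines 1 and 2. With media from day 2 the values spread apart by line, at 8934, 2903 and 9374 for indirect CAP and 6534, 1753 and 9065 for PAM. In both groups line 2 fell inside the untreated range, and lines 1 and 4 stood above it. Neither passed the threshold (log2 fold changes 1.10 and 0.69), and for PAM from day 2 the sign turned when the untreated libraries of lines 1 and 2 were left out (-0.10). After 30 min Clu was at 4710, 4340 and 10178.

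Il33 encodes interleukin 33, an alarmin held in the nucleus and released from damaged epithelium. It differed widely between lines. Untreated values were 13, 151, 250 and 247 CP20M in lines 1 to 4. Lines 1, 2 and 4 held 1021, 327 and 2417 after direct CAP for 24 h, 443, 230 and 1811 in the day 1 indirect group and 2148, 589 and 2256 in the day 1 PAM group. Line 2 in the indirect group was the single exposed library of the 9 inside the untreated range. The log2 fold change was 3.09 (SE 0.80, adjusted p = 0.00933), close to the limit. With a single library left out it was called in 3 fits of 13 (adjusted p from 0.00508 to 0.0391). Dropping any untreated library, any PAM library, direct 24 h line 1 or 4, or indirect line 4 ended the call. It was also lost with no filter on low values (0.0111) and with all 7 groups in one fit (0.0128), and without the untreated libraries of lines 1 and 2 the log2 fold change was 1.87 (adjusted p = 0.147). With media from day 2 Il33 was at 364, 149 and 981 for indirect CAP and 601, 133 and 1489 for PAM, with line 2 below its labelled untreated value in both. After 30 min it was at 210, 79 and 1344.

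Anxa1 encodes annexin A1, a calcium-dependent phospholipid-binding protein that restrains inflammation. It was at 482, 913, 1809 and 527 CP20M in untreated organoids of lines 1 to 4. After direct CAP for 24 h lines 1, 2 and 4 held 3957, 1810 and 3173, the day 1 indirect group 2644, 1374 and 1620 and the day 1 PAM group 7139, 3375 and 1839. Lines 2 and 4 of the indirect group lay below the untreated library of line 3, so the groups overlapped. The log2 fold change of 1.70 (SE 0.41, adjusted p = 0.00668) was the lowest of the 7 that passed. The call was lost on dropping untreated line 1, 2 or 4, direct 24 h line 1 or 4, or PAM line 2 (adjusted p up to 0.0323), and without both untreated libraries of lines 1 and 2 it was 1.43 (adjusted p = 0.104). With media from day 2 it was at 3748, 1294 and 821 for indirect CAP and 2933, 1746 and 1319 for PAM, and after 30 min at 1739, 1203 and 1033. Anxa1 (chromosome 19, 20373428 to 20390944) overlaps 1500015L24Rik on the other strand, and whether the counting used strand is not given in the sources used here.

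Ptgs2 encodes cyclooxygenase 2, the inducible enzyme at the head of prostaglandin synthesis. It was low in untreated organoids, at 10, 13, 70 and 49 CP20M in lines 1 to 4. It reached 283, 83 and 338 in lines 1, 2 and 4 after direct CAP for 24 h, 153, 45 and 302 in the day 1 indirect group and 540, 174 and 342 in the day 1 PAM group. Line 2 of the indirect group was the 1 exposed library inside the untreated range. The log2 fold change was 2.89 (SE 0.62, adjusted p = 0.00345), with the call lost on dropping untreated line 1 or untreated line 2 (adjusted p up to 0.0181), and 1.76 (adjusted p = 0.119) without both. With media from day 2 Ptgs2 was at 449, 111 and 233 for indirect CAP and at 475, 298 and 2139 for PAM, all above the untreated values. PAM from day 2 gave a log2 fold change of 4.63 (SE 0.85, adjusted p = 0.00322), and 3.50 (adjusted p = 0.0309) without the untreated libraries of lines 1 and 2. That call was also lost on dropping untreated line 2 alone (adjusted p = 0.011). For indirect CAP from day 2 it was 3.07 (adjusted p = 0.01003), just outside the threshold, and inside it once untreated line 3 or indirect line 2 was dropped (lowest adjusted p = 0.00613). After 30 min Ptgs2 was at 38, 19 and 114.

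**Figure D2:**
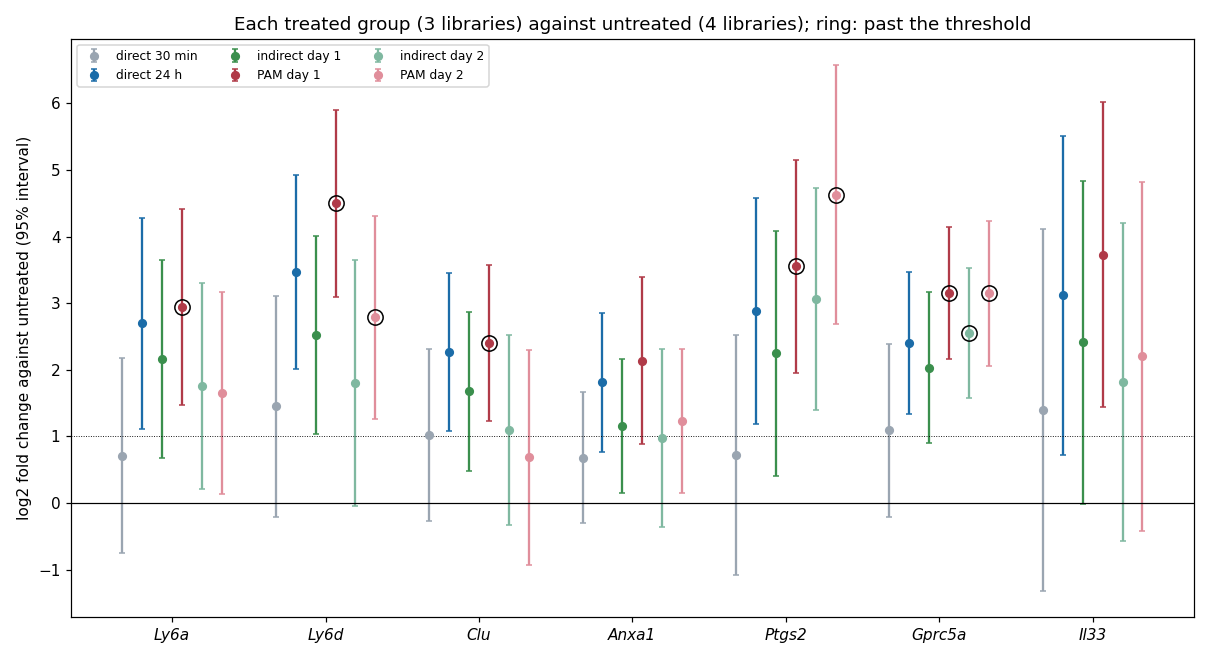
Log2 fold change of each gene in each treated group (n = 3) against untreated organoids (n = 4), with 95% intervals. Horizontal positions are the 7 genes tested and colours the groups; a ring marks a value past the threshold. The estimates after 30 min lie below those after 24 h for all 7 genes, and every interval after 30 min spans 0.

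Taken group by group, the 7 genes that could be tested were higher in the fit in all 6 groups, but few calls were made with 3 libraries a group. These comparisons share the untreated libraries. Direct CAP for 30 min gave 0 of 7 calls by limma (0.00564% of genes called higher) and 0 of 7 at an unadjusted p under 0.05, which 13.9% of all genes reached in the higher direction. The log2 fold changes lay between 0.68 and 1.45. Without the untreated libraries of lines 1 and 2 they turned to -0.27 for Ly6a and -0.41 for Ptgs2. None of the 7 had all 3 libraries above all untreated ones, where 12.4% of genes did.

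Direct CAP for 24 h gave 0 of 7 calls by limma (1.25% of genes called higher) although all 7 genes had an unadjusted p under 0.05 (12.8% of genes, higher). Their log2 fold changes were between 1.81 and 3.47, and adjusted p-values between 0.0109 and 0.0739. In all 7 every exposed library stood above every untreated one, against 11.6% of genes, for Anxa1 by 1810 against 1809 CP20M. With the line as a block Ly6a, Ly6d and Ptgs2 were past the threshold (1.34% of genes higher). Without the untreated libraries of lines 1 and 2 the log2 fold changes were between 1.48 and 2.61, with that of Ly6a at 1.71 in place of 2.70 and that of Ptgs2 at 1.75 in place of 2.88, and 0 of 16894 genes were called. Indirect CAP from day 1 gave 0 of 7 calls by limma (0.831% of genes), with 6 of 7 at an unadjusted p under 0.05 (19.7% of genes, higher). Of the 7 genes, 4 did not overlap the untreated libraries (16.7% of genes), and with the block Ly6a alone was called (adjusted p = 0.00424, 1.36% of genes higher). Without the untreated libraries of lines 1 and 2 the 7 log2 fold changes lay between 0.89 and 1.66, and 0 of 17533 genes were called.

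PAM from day 1 gave 5 of 7 calls (4.83% of genes), Ly6a, Ly6d, Clu, Ptgs2 and Gprc5a, and its median log2 fold change of 3.16 was the highest of the 6 groups. All 7 genes had an unadjusted p under 0.05 (18.6% of genes, higher) and were clear of the untreated libraries (17.1% of genes). Ly6d and Gprc5a were called in each of 7 fits with 1 library left out, whereas Ly6a was called in 1 of them, Clu in 3 and Ptgs2 in 4. The count was 2 on dropping untreated line 2, PAM line 1 or PAM line 4, and 3 on dropping PAM line 2. Without the untreated libraries of lines 1 and 2, Ly6d, Clu and Gprc5a were called (2.35% of genes higher), and with the block 4 of the 5 were, all except Clu (3.91%). From day 2, Gprc5a alone was called for indirect CAP (1 of 7, 6.2% of genes), and Ly6d, Ptgs2 and Gprc5a for PAM (3 of 7, 6.82% of genes). Clear of the untreated libraries were 2 of 7 genes for indirect CAP (22.7% of genes) and 3 of 7 for PAM (20.7% of genes). The day 2 PAM count was 1 on dropping untreated line 2, and 0 without both libraries in doubt, where 0 of 17146 genes were called higher. For indirect CAP the 1 call was kept without both (2.39% of genes higher). Under the block the count for PAM was 4 (6.43%) and that for indirect CAP 3 (5.62%).

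The treated groups were also compared with each other, where the untreated libraries play no part. Direct CAP for 24 h was set against direct CAP for 30 min. As the collection time of the 30 min group is not certain, this is not a time course. Length of exposure, time in fresh medium and time of collection cannot be told apart. All 7 genes were higher after 24 h, by 1.13 to 2.16 on the log2 scale, with 6 at an unadjusted p under 0.05 (6.4% of genes, higher) and 0 past the threshold by limma, as for 0% of all genes. Ly6a, Clu and Anxa1 did not overlap between the groups (7.33% of genes). The same lines were sampled in both groups, and with the line as a block Ly6a, Ly6d, Ptgs2, Gprc5a and Il33 were past the threshold (5 of 7), when 97 of 17668 genes were called higher.

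PAM from day 1 was above indirect CAP from day 1 in the fit for all 7 genes, by 0.72 to 1.98. By limma 0 of 7 were called (0% of genes) and 4 had an unadjusted p under 0.05 (4.85% of genes, higher), Ly6a, Ly6d, Clu and Gprc5a. The first 3 of these did not overlap between the groups (5.78% of genes). Within the lines PAM was above indirect CAP in 21 of 21 pairs of libraries, so all 7 genes were higher in each of the 3 lines, as were 16.9% of genes. With the line as a block their adjusted p-values were between 0.0216 and 0.0412, and 0 of 17634 genes were past the threshold. PAM from day 1 and direct CAP for 24 h differed by 0.13 to 1.04, with 0 of 7 calls by limma (0% of genes) and 0 at an unadjusted p under 0.05 (10.4% of genes, either way). The interval for Clu in that comparison ran from -0.32 to 0.58 and that for Il33 from -1.18 to 2.39, so a difference of several fold in Il33 lies within its interval. Indirect CAP from day 1 lay below direct CAP for 24 h in all 7 genes, by up to 0.94, with 0 of 7 calls by limma (0% of genes) and 1, Clu, at an unadjusted p under 0.05 (6.95% of genes, either way). All 7 genes were lower in each of the 3 lines (13.3% of genes were), with adjusted p-values of 0.111 to 0.156 under the block.

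PAM given from day 2 was compared with PAM given from day 1. These groups, like those of indirect CAP, also differ in the age of the medium and in time in fresh medium before collection. Start day, medium age and that time cannot be told apart. Ly6a was lower by 1.29 on the log2 scale (SE 0.14), with values of 620, 822 and 652 CP20M against 1813, 1603 and 1674 in lines 1, 2 and 4. Its unadjusted p was 3.8e-05 and its adjusted p 0.0503 by limma, outside the threshold, as was the 0.0207 found with the line as a block. Ly6d and Clu were also lower in every library, by 1.72 (SE 0.57) and 1.71 (SE 0.56), at adjusted p = 0.118 and 0.115. The log2 fold change was -1.52 for Il33 and -0.90 for Anxa1, with overlap. Gprc5a did not follow (-0.01, 95% interval -0.82 to 0.80), and Ptgs2 was higher in the fit (1.08, 95% interval -0.69 to 2.85), mainly in line 4. By limma 0 of 7 genes were called (0% of genes), 3 had an unadjusted p under 0.05 (26.8% of genes, either way), and 16.9% of genes had every day 2 library below every day 1 library, as Ly6a, Ly6d and Clu did. For indirect CAP, day 2 against day 1 gave 0 of 7 calls (0.0111% of genes) and 0 at an unadjusted p under 0.05 (21.7% of genes, either way), with Ptgs2 (0.82) and Gprc5a (0.52) above 0 and the other 5 genes below 0. PAM against indirect CAP, both from day 2, gave 0 of 7 calls (0% of genes) and 0 at an unadjusted p under 0.05 (9.48% of genes, either way).

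Several genes kept a like order of the organoid lines from group to group. Il33 was highest in line 4 and lowest in line 2 in 6 of 6 treated groups. Anxa1 was highest in line 1 in 6 of 6, while Ly6d was lowest in line 1 in 6 of 6. Gja1 was also highest in line 1 in 6 of 6, but at 17 CP20M or below throughout, close to the detection limit. Ptgs2 was lowest in line 2 in 6 of 6 groups, Clu in 5 and Gprc5a in 4, and Gprc5a was highest in line 4 in 5. With 1 library per line and group these are orders of single values, and line, sex and passage cannot be told apart. Over all genes that passed the filter, treated libraries of 1 line also correlated (45 pairs, median 0.56). A like order is thus not shown to be particular to these genes, and no share over all genes is given.

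Each treated library was set beside the untreated library of its line. That single library serves for every group, so the differences within a line are not independent. For lines 1 and 2 the pairing is in doubt. No share over all genes is given for these counts, which are descriptions. Over the 7 genes without Gja1, 121 of 126 differences were above 0. For the 3 groups exposed for 24 h from day 1 all 63 were, from 0.59 to 7.26 on the log2 scale. The 7.26 belongs to Il33 in line 1, where the untreated library held 13 CP20M and its pairing is in doubt. In line 4, whose untreated library correlated with its treated ones (median 0.60), 42 of 42 differences were above 0, between 0.64 and 5.42. Within that line Clu differed by 0.72 to 1.49 and Il33 by 1.99 to 3.29.

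Levels of different genes can be compared only per length. Divided by exon length in kilobases, the untreated mean was 1016 CP20M for Clu, 335 for Gprc5a, 320 for Anxa1, 262 for Ly6a, 57.3 for Il33, 54.4 for Ly6d, 7.75 for Ptgs2 and 0.51 for Gja1. Clu thus stood above 91.9% of the 16319 genes detected and Ptgs2 above 7.53%. Gprc5a, Anxa1 and Ly6a followed each other within their SD of 149 to 267, and so did Il33 and Ly6d (SD 38.6 and 40.4). In PAM from day 2 the mean per kilobase was highest for Gprc5a (2837).

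**Figure D3:**
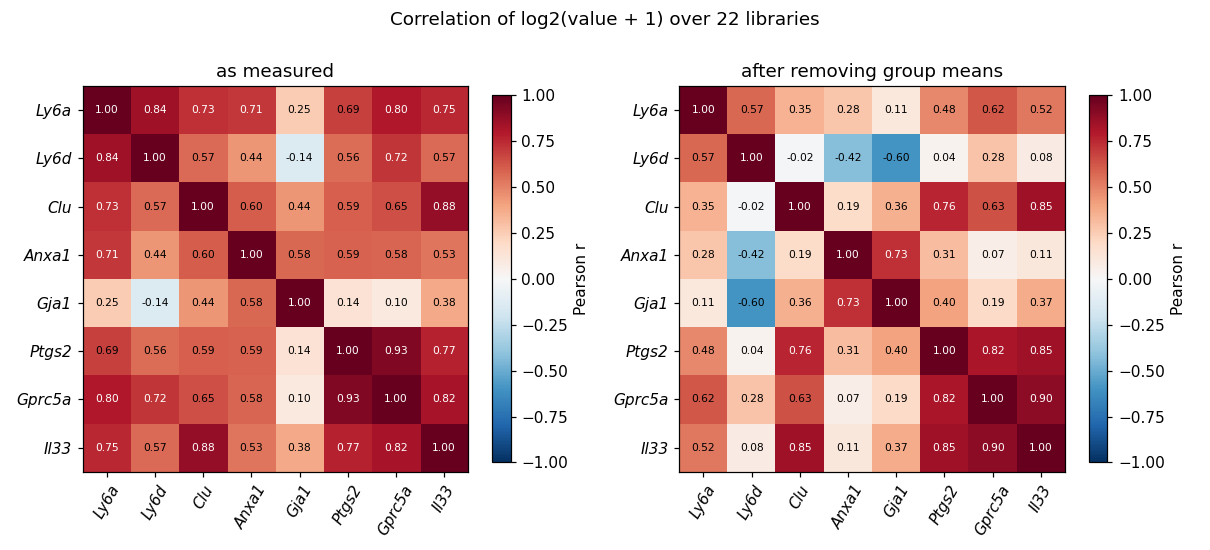
Pearson r of log2(CP20M + 1) between the 8 genes over the 22 libraries, as measured (left) and after group means were removed (right), with colour from -1 to 1. Ptgs2 and Gprc5a reach 0.93 on the left, and Gprc5a and Il33 reach 0.90 on the right.

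Across the 22 libraries the 7 genes other than Gja1 correlated positively in all 21 pairs, with r between 0.44 and 0.93 (median 0.69). The libraries share lines and group differences, so these are descriptions. After group means were removed 19 of 21 pairs were still above 0, and the pairs split in kind. Gprc5a with Il33 (0.90), Ptgs2 with Il33 (0.85), Clu with Il33 (0.85) and Ptgs2 with Gprc5a (0.82) varied together from line to line within groups. Ly6d with Anxa1 did the opposite (-0.42), as did Ly6d with Gja1 (-0.60), while Anxa1 and Gja1 went together (0.73). Gja1 lay close to the detection limit, so each r with it rests on few reads.

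Among 11804 genes with a mean of at least 100 CP20M, the gene most like each marker over the 22 libraries was found by the same r. For Gprc5a it was Syt8 (0.99), then Plaur (0.98), the urokinase receptor of the Ly6 superfamily. For Ptgs2 it was Ier3 (0.98), an immediate early gene, then Epha2 (0.96) and Ajuba (0.96). For Il33 it was Myo1h (0.98), for Clu Msln (0.96), the surface protein mesothelin, and for Ly6d Parp12 (0.93). Anxa1 was most like Prnp (0.90), the prion protein gene, followed by S100a11 (0.87), which codes for a calcium-binding partner of annexin A1. Ly6a was most like Gstk1 (0.90), and Gja1, with few reads in every library, was most like Usp46os2 (0.86).

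**Figure D4:**
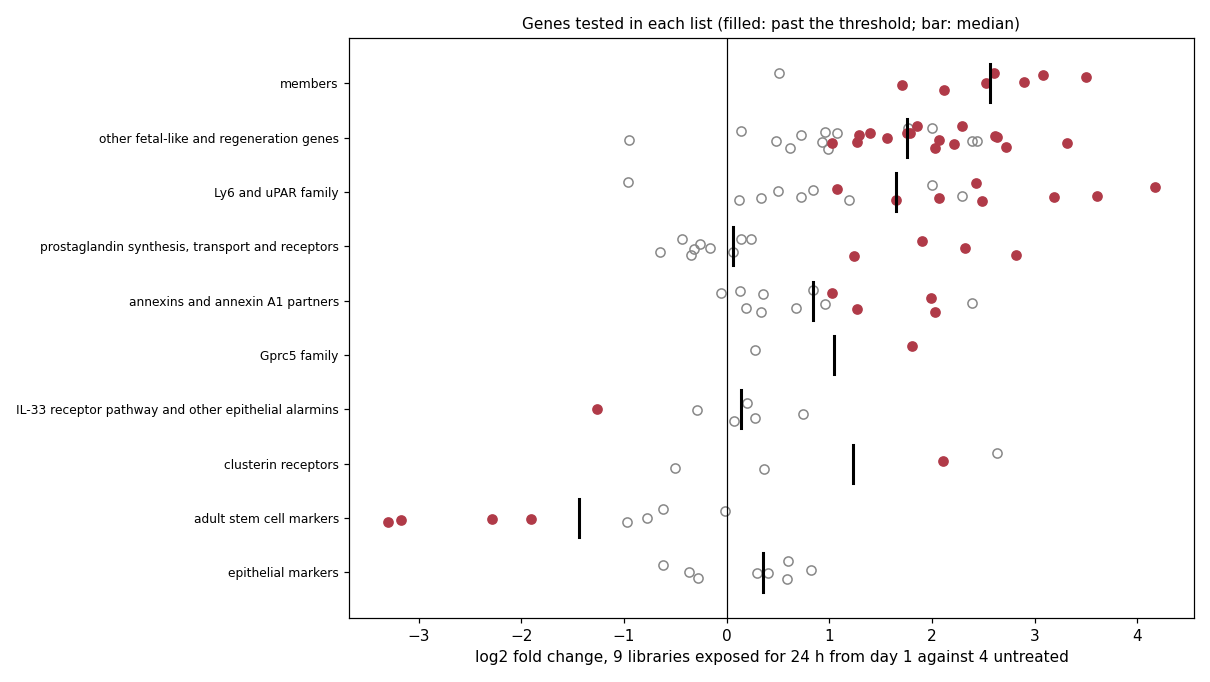
Log2 fold change of each tested gene (horizontal axis) in 10 gene lists (rows), for the 9 libraries exposed for 24 h from day 1 against the 4 untreated ones. Filled points are past the threshold and bars are medians. The list of 8 markers has a median of 2.57 and that of adult stem cell markers -1.44.

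Other genes of the fetal-like and regenerative program were counted in the same comparison of 9 with 4 libraries. Of 29 such genes, 16 rose and 0 fell, where 4.27% of all genes tested were called higher and 2.07% lower. A log2 fold change above 0 was found for 28 (median 1.76). Areg, an epidermal growth factor family ligand, was at 509 ± 307 (SD, n = 4) and 4499 ± 1278 CP20M (n = 9), with a log2 fold change of 3.32 (adjusted p = 2.05e-05). The interleukin 1 receptor antagonist Il1rn rose by 2.72, tissue factor F3 by 2.63 and Msln by 2.61. Areg, Hbegf and Epn3 of this list, like Ptgs2, Ly6a and Clu of the 8, are genes the study named from these samples. It also named Gpr5a, which may stand for Gprc5a. The 8 genes and all lists were chosen with earlier results of these data known. No direction or count here is therefore independent evidence. Leaving out 1 library took the count to between 9 and 19, the lowest being that with untreated line 1 dropped (2.51% of all genes called higher). With untreated lines 1 and 2 both dropped the count was 3, Areg, Hbegf and Emp2 (0.653% of all genes called higher). Emp2 was not among the 16 (log2 fold change 0.99 with all libraries). Of 8 adult stem cell markers 4 fell and 0 rose (2.07% of genes called lower). With untreated line 1 dropped 0 were called (1.02% of genes lower), as with untreated lines 1 and 2 both dropped (0.152%). The 4 were Lgr5, Olfm4, Smoc2 and Axin2, which the study also named from these samples, so their fall is no independent evidence. With the line as a block 2 of the 4 were called, Smoc2 and Axin2 (1.9% of genes lower). Lgr5 and Olfm4 were not (adjusted p = 0.0103 and 0.0219).

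Of the Ly6 and uPAR family, to which Ly6a and Ly6d belong, 17 of the 27 genes in the table could be tested. Of these 8 rose and 0 fell (median log2 fold change 1.65), where 4.27% of all genes were called higher and 2.07% lower. Gml, which lies in the Ly6 cluster, was at 6.25 ± 5.56 CP20M in untreated organoids and 130 ± 91.5 in the exposed ones (log2 fold change 4.17, adjusted p = 0.000727). Ly6g changed by 3.61, Psca by 3.19 and Lypd3 by 2.48, the last from a mean of 2.5 CP20M. Gml, Ly6g and Lypd3 passed the low-value filter (10 CP20M in 3 libraries) through the exposed libraries. Family genes low in both groups were not tested. The count and the median of the family therefore lean upward, and no conclusion on the family is drawn from them. Ly6e, an interferon-induced member, was only 0.73 higher, below the fold limit, and Ly6c1 was at 2.00 (adjusted p = 0.0125). The number called was 3 with untreated line 1 dropped (2.51% of all genes called higher) and 0 with untreated lines 1 and 2 both dropped (0.653%).

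Around Ptgs2, 4 of 13 tested genes of prostaglandin synthesis, transport and reception rose and 0 fell (4.27% of all genes higher, 2.07% lower), with a median of 0.06. They were Ptgs1 (2.82), the constitutive cyclooxygenase, Slco2a1 (2.32), the prostaglandin uptake carrier, Ptges (1.90), a prostaglandin E synthase, and Abcc4 (1.24), an exporter. All 4 were called in each of 13 fits with a single library left out. Without the untreated libraries of lines 1 and 2 together, 0 of them were called (0.653% of all genes called higher). Ptges, at a mean of 6.5 CP20M in untreated organoids, passed the low-value filter through the exposed libraries. Ptgs1 went from 40.3 ± 20.0 (SD, n = 4) to 321 ± 198 CP20M (n = 9). Hpgd, which inactivates prostaglandins, differed by 0.06 (SE 0.14), and the receptor gene Ptger4 by -0.35 (adjusted p = 0.123).

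Of 13 tested annexins and annexin A1 partners, which overlap the fetal-like list in part, 4 rose and 0 fell (median 0.85). Of all genes 4.27% were called higher and 2.07% lower. The 4 were Anxa3 (2.03), Anxa10 (1.99), S100a11 (1.27) and Anxa2 (1.03). Dropping untreated line 1 left 1 call (2.51% of all genes called higher), and dropping untreated lines 1 and 2 left 0 (0.653%). The formyl peptide receptors of annexin A1 were absent or nearly so, with Fpr2 listed at 0 in every library and Fpr1 at no more than 1 CP20M. Gprc5b rose by 1.80 (1 of 2 tested in its family, against 4.27% of all genes), and Gprc5c was at 0.28. The call of Gprc5b was lost on dropping any untreated library or lines 1 and 2 together.

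Of 6 tested genes of the interleukin 33 receptor pathway and of other alarmins, 0 rose and 1 fell (4.27% of all genes higher, 2.07% lower). This was Il1rap, the shared receptor chain, at 293 ± 50.02 CP20M in untreated and 125 ± 36.0 in exposed organoids (log2 fold change -1.26, adjusted p = 0.000861). Without the untreated libraries of lines 1 and 2 its log2 fold change was -1.20 and the call was lost (adjusted p = 0.0257). Il1rl1, the specific receptor chain, was at 5 CP20M or below in every library and was not tested. Of 4 clusterin receptors 1 rose (4.27% of all genes called higher), Vldlr (2.10, adjusted p = 2.85e-05). Vldlr was also called without the untreated libraries of lines 1 and 2 (0.653% of all genes higher). Lrp2 was at 2.63 (adjusted p = 0.0244).

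Markers of other cell types were counted in the same libraries. Epithelial markers summed to between 118766 and 200076 CP20M in every library, and 5 of 8 had a log2 fold change above 0 in the comparison of 9 with 4 libraries (median 0.35). Stromal markers, 8 genes, summed to 15 to 48 CP20M in untreated and 23 to 48 in exposed libraries, with Lum listed at 0 throughout, and 4 endothelial markers to 26 to 55 and 13 to 53. The 5 immune markers summed to 19 to 43 in untreated and 43 to 100 in exposed libraries, of which Cd68, a lysosomal protein gene typical of macrophages, made up 62.8% or more in every one of these libraries. Cd68 rose by 1.35 (adjusted p = 0.000427), a call lost without the untreated libraries of lines 1 and 2 (1.37, adjusted p = 0.0151). The part of Cd68-bearing cells in the change of the 8 genes was not tested.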

How the data were processed

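RNA-seq was analysed for 22 libraries, 4 untreated and 3 in each of 6 treated groups. Per the labels and the study's methods, reads were trimmed with Trimmomatic 0.36, aligned with STAR 2.5.3a to GRCm38, counted with HTSeq 0.9.1 on Ensembl genes and tested by the authors with edgeR. The values deposited are a score, CP20M: the spacing of low values is that of counts scaled to 20 M in each library, then rounded up, with no length correction, although the study's methods define CP20M per kilobase. That spacing also gave the estimate of reads per library. Count models need raw counts and were not run here. No library was a copy of another of its own group (24 replicate pairs checked). Pairs across groups were not checked in this way.

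Values were tested as log2(CP20M + 1) with limma's trended moderated test (R 4.3.3, limma 3.58.1) and Benjamini-Hochberg adjustment over all genes that reached 10 CP20M in 3 or more libraries of the fit. Only the groups compared entered each of 14 fits. This test was checked on simulated data with known changes. The simulated libraries were independent and had no effect of line. The check therefore cannot tell how the p-values behave where the same lines recur. Python 3.11.15 with matplotlib 3.10.9 served for counts and figures. The 8 genes and the gene lists were chosen with earlier results of these data known. Of the lists, every count, the largest changes past the threshold (up to 4 genes each) and direct partners of the 8 genes are named, and likeness was ranked over genes with a mean of at least 100. Alternatives were the line as a replicate block, all 7 groups in one fit, no low-value filter, quantile normalization, 10 as pseudocount, a limit of 0.05 on the adjusted p and none on the fold, each library left out and, chosen after seeing the data, both untreated libraries of lines 1 and 2 left out. By the labels, same-numbered libraries come from the same mouse. The median correlation of deviations from group means was 0.54 within lines (63 pairs) and -0.31 between lines, but the untreated libraries of lines 1 and 2 did not correlate best with their own line, so block values that use them rest on a pairing in doubt. List genes Ly6g2 and Ly6m were not matched, and Itgam, listed under 2 identifiers, was left out. One of the lists is not reported here. Protein sequences were not used here.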

Additional observations from a re-analysis of the deposited data

How the results depend on the processing

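The signs and calls of the 8 genes were recomputed under each alternative. The share of all genes called higher under the same setting is in parentheses. For direct CAP for 24 h, 0 genes past the threshold became 6 at an adjusted p under 0.05 with no fold limit (7.05%), 1 with a pseudocount of 10 (1.33%), 3 with all 7 groups in one fit (1.56%) and 3 with the line as a replicate block (1.34%). For indirect CAP from day 1, 0 became 3 at an adjusted p under 0.05 (10.2%) and 1 with the replicate block (1.36%). For PAM from day 1, 5 became 7 at an adjusted p under 0.05 (15.2%). For indirect CAP from day 2, 1 became 2 at an adjusted p under 0.05 (20.3%), with quantile normalization (5.67%), with a pseudocount of 10 (5.67%) and with all groups in one fit (7.09%), and 3 with the replicate block (5.62%). For direct CAP for 24 h against 30 min, 0 became 5 with the replicate block (0.549%), which elsewhere changed the calls of single genes as given above. Without both untreated libraries of lines 1 and 2, the 7 genes of the pooled comparison became 0, the 5 of PAM from day 1 became 3 and the 3 of PAM from day 2 became 0. Here 2 untreated libraries remain, and of all genes 148 were called instead of 1173 in the pooled comparison. Leaving out 1 library gave 4 to 7 calls in the pooled comparison, 2 to 6 for PAM from day 1, 1 to 3 for indirect CAP from day 2, 1 to 4 for PAM from day 2 and 0 in the other comparisons.

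The sign turned for Ly6a after 30 min (-0.27), Ptgs2 after 30 min (-0.41) and Clu in PAM from day 2 (-0.10) without both untreated libraries of lines 1 and 2, and for Ly6a in PAM against indirect CAP from day 2 (0.017) with quantile normalization. With 1 library left out it turned only between treated groups, where no value was past the threshold. The ranges were, for day 1 PAM less direct 24 h, -0.091 to 0.66 (Ly6a), -0.071 to 0.26 (Clu), -0.19 to 0.79 (Anxa1) and -0.15 to 1.29 (Il33). For PAM against indirect CAP from day 2 they were -0.41 to 0.15 (Ly6a), -0.96 to 0.30 (Clu), -0.22 to 0.87 (Anxa1) and -0.41 to 1.33 (Il33). For indirect CAP from day 2 against day 1 they were -1.45 to 0.15 (Ly6d), -0.81 to 0.29 (Anxa1) and -1.29 to 0.24 (Il33), for day 1 indirect less direct 24 h -0.80 to 0.0024 (Gprc5a) and -1.27 to 0.11 (Ptgs2), and for PAM from day 2 against day 1 -0.33 to 0.30 (Gprc5a). The cause of these changes was not tested. The untreated values of Gja1, Ptgs2 and Ly6d lie at 81 CP20M or below, and the part of counting error in their spread was not tested.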
